A study of Mus musculus with 6 samples.

Results

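The 7 Schlafen genes described here, Slfn1, Slfn2, Slfn3, Slfn4, Slfn5, Slfn8 and Slfn9, were the rows of the deposited table whose Ensembl identifiers carry these symbols in the mouse annotation (GENCODE M21 on GRCm38), 7 of 49328 genes. RNA sequencing was done on 6 libraries of total RNA from mesenchymal stromal cells (MSCs), isolated by digestion of whole bone marrow from CB6F1 mice (a hybrid of the BALB/c and C57BL/6 strains) with acute graft-versus-host disease and then cultured. Of these, 3 cultures received a compound labelled only R at 0.5 um (unit as labelled) and 3 received the DMSO vehicle. Both groups came from diseased mice. The sources used here do not give the length of treatment, the identity of R, the age of the mice or whether replicates came from separate animals. P-values therefore measure the spread between these libraries, which may be technical.

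Schlafen genes encode a family of interferon-inducible proteins of haematopoietic and other cells, named after the German word for sleeping because early members slowed the growth of T cells. All share a Schlafen core domain. The short proteins consist of little else, the intermediate ones carry an additional linker domain, and the long ones add a region resembling a helicase, and several family members bind or cut transfer RNA. The coding sequences here ranged from 337 codons in Slfn1 and 378 in Slfn2 (short) over 602 in Slfn4 and 640 in Slfn3 (intermediate) to 884 in Slfn5 and 910 in both Slfn8 and Slfn9 (long). All 7 lie in 1 cluster on chromosome 11 (82951349 to 83286726, GRCm38, 335.4 kb), together with the pseudogene Slfn10-ps and with Slfn14.

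Each of the 7 genes was lower in all 3 R libraries than in all 3 vehicle libraries. The groups were separated in this direction in 10.2% of all genes above 0 in any library, and in 15.5% of the genes tested (29.3% in either direction). The genes were chosen by family name after their FPKM in R and vehicle had been seen, so their changes are a description and support no test. In FPKM, fragments scaled to gene length and library size, R cultures had 22% of the vehicle level of Slfn5, 24.6% of Slfn8, 35.4% of Slfn2, 53% of Slfn3 and 54.9% of Slfn9. The contrast lay less between short and long genes than within the long ones: Slfn5 and Slfn8 were far lower in R, while Slfn9, next to them and close to Slfn8 in sequence, was less so. Of the 7, 5 were high enough to be tested (at least 1 FPKM in at least 3 libraries), and Slfn2, Slfn5, Slfn8 and Slfn9 passed an adjusted p of 0.05 in limma, all lower in R. Among all 11862 genes tested 6.82% were called in either direction and 4.43% lower, and nothing is read from the members' count. Their median log2 change was -1.5, against -0.0037 over all genes tested.

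**Figure D1:**
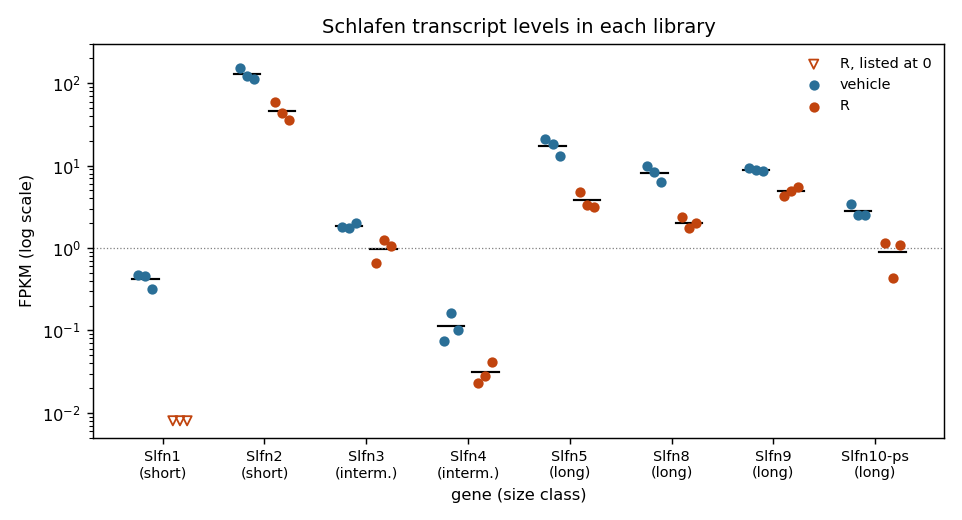
FPKM of the 7 Schlafen genes and the pseudogene Slfn10-ps in each library on a log scale, with vehicle in blue, R in orange and a black bar at the mean of 3 libraries. The dotted line marks the 1 FPKM used by the filter, and open triangles are the 3 R libraries in which Slfn1 is listed at 0. For every gene shown, the highest R value lay below the lowest vehicle value.

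Slfn2 was the dominant Schlafen transcript. Its product is a short protein that keeps T cells and monocytes quiescent and able to respond, and that binds transfer RNA and shields it from cleavage. Slfn2 (ENSMUSG00000072620, 83065112 to 83070678, plus strand) stood at 153, 124 and 113 FPKM in vehicle replicates 1, 2 and 3 and at 59.1, 43.2 and 35.5 FPKM in R replicates 1, 2 and 3. The highest R library was well below the lowest vehicle library. The vehicle mean of 130 ± 20.6 FPKM and the R mean of 45.9 ± 12 FPKM (SD, n = 3) were 2.83-fold apart, with a log2 change of -1.50 (SE 0.20) on the log2(FPKM + 1) scale. Slfn2 alone made up 76.75% to 78.8% of the summed FPKM of the 7 genes in vehicle and 75.2% to 82.9% in R. That share overlapped between the groups, so the summed level followed Slfn2, from 143 to 195 FPKM in vehicle and from 47.2 to 71.3 FPKM in R. An antisense gene, Gm20234, overlaps Slfn2 and reached at most 1.04 FPKM. The sources used here do not say whether the libraries keep strand.

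Slfn1, the other short gene and the founding member studied in thymocytes and T cells, was near the limit of detection. Its level (ENSMUSG00000078763, 83116849 to 83122670) was 0.471, 0.458 and 0.322 FPKM in the vehicle libraries, which stands for an estimated 15, 16 and 12 reads. It was listed at 0 in each of the 3 R libraries, where a count of 0 allows up to 0.074 to 0.0895 FPKM (3 reads, counting error only). The vehicle values all lay above that limit. Slfn1 was below the filter and was not tested with the other genes.

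The intermediate genes were low in both groups. Slfn3, known from T cells and from the differentiation of gut epithelium, stood at 1.80, 1.75 and 2.02 FPKM in vehicle and 0.661, 1.24 and 1.05 FPKM in R (ENSMUSG00000018986, 83191330 to 83215154). Its groups did not overlap, but the R libraries spread over 1.88-fold, and its log2 change of -0.54 (SE 0.14) did not pass the threshold. Slfn4, a marker of certain activated myeloid cells, had 0.0739, 0.162 and 0.101 FPKM in vehicle and 0.0232, 0.02805 and 0.0419 FPKM in R (ENSMUSG00000000204, 83175186 to 83190216). Those values stand for an estimated 5 to 12 reads in a vehicle library and 2 to 3 in an R library, so Slfn4 was barely detected in either group. The coding sequences of Slfn3 and Slfn4 were 91.6% identical over 1779 aligned bases, yet Slfn3 was the higher of the pair in each of the 6 libraries.

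Among the long genes, Slfn5 was the most abundant in vehicle. It encodes a nuclear protein that in human cells has been described as a brake on interferon-dependent transcription. Slfn5 (ENSMUSG00000054404, 82951349 to 82964840, plus strand) stood at 20.9, 18.1 and 13 FPKM in vehicle and at 4.86, 3.37 and 3.175 FPKM in R. The lowest vehicle library was far above the highest R library, and the means of 17.3 ± 4 and 3.8 ± 0.92 FPKM (SD, n = 3) were 4.56-fold apart. Its log2 change of -1.92 (SE 0.20) was the largest among the 5 tested members. It was the 85th largest fall among the 11862 genes tested.

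Slfn8 and Slfn9 are a pair of long genes with 92.7% identical coding sequences over 2730 bases and transcribed from the minus strand. Slfn8 (ENSMUSG00000035208, 83002158 to 83020810) had 9.88, 8.39 and 6.40 FPKM in vehicle and 2.35, 1.74 and 1.99 FPKM in R, a 4.06-fold difference between the means of 8.22 ± 1.75 and 2.03 ± 0.306 FPKM. Slfn9 (ENSMUSG00000069793, 82978390 to 82991830) had 9.38, 8.79 and 8.55 FPKM in vehicle and 4.29, 4.95 and 5.44 FPKM in R, a 1.82-fold difference between 8.9 ± 0.43 and 4.89 ± 0.578 FPKM. The pair was thus level in vehicle, where the library ranges overlapped, and apart in R, where every Slfn9 value exceeded every Slfn8 value. The log2 changes were -1.60 (SE 0.16) for Slfn8 and -0.75 (SE 0.10) for Slfn9, and they were -0.90 and -0.49 with a pseudocount of 5.

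Ratios within a library show the same split without any scaling between libraries. The ratio of Slfn8 to Slfn9 was 1.05, 0.955 and 0.749 in the vehicle libraries and 0.548, 0.352 and 0.366 in the R libraries. The ratio of Slfn5 to Slfn9 was 2.22, 2.06 and 1.52 in vehicle and 1.13, 0.68 and 0.584 in R. Neither ratio overlapped between the groups. The ratio of Slfn5 to Slfn8, in contrast, was 2.11, 2.16 and 2.03 in vehicle and 2.07, 1.93 and 1.60 in R, with overlapping ranges. Slfn9 also varied least among the vehicle libraries, with a coefficient of variation of 4.82% against 15.8% to 23.1% for Slfn2, Slfn5 and Slfn8.

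**Figure D2:**
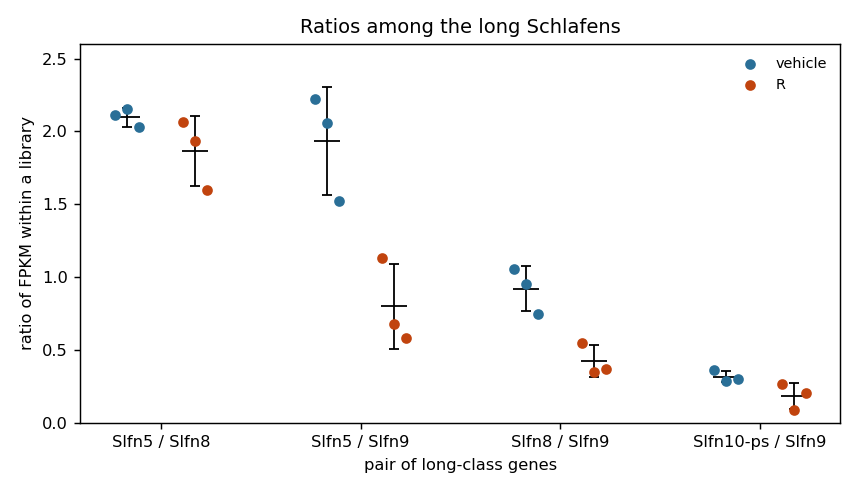
Ratio of FPKM between pairs of long-class genes within each library, with vehicle in blue, R in orange and black marks for the mean ± SD of 3 libraries. The ratios of Slfn5, Slfn8 and Slfn10-ps to Slfn9 were lower in every R library than in every vehicle library, while that of Slfn5 to Slfn8 overlapped at about 2.03 to 2.07.

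The sequences before the starts of 4 members are shown because they differ in whether they match the letters searched for as an interferon response element. Sequences are RefSeq promoter windows of GRCm38.p6, the C57BL/6J genome, read 5′ to 3′ on the gene's own strand and ending just before the start site or before an annotated exon. Capitals mark matches to the interferon-stimulated response element (ISRE), the DNA motif bound by complexes with IRF9 and by other interferon regulatory factors. The RefSeq start of Slfn5 lies 753 bases downstream of the first GENCODE start, so its window lies within the gene as placed above. The motif was searched on both strands as GAAA, then any 2 bases, then GAAA, in windows of 300 bases around start sites.
Slfn5, chr11:82951852-82951984, plus strand: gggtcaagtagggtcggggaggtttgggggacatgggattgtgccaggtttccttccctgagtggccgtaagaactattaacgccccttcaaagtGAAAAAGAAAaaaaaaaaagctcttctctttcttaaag
Slfn8, chr11:83020811-83021060, minus strand: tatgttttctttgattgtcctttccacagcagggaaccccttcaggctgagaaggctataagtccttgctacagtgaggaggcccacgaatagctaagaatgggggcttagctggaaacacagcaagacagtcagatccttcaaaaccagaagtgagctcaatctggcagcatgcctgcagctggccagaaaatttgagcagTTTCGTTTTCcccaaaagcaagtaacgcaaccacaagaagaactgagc
Slfn9, chr11:82991831-82992080, minus strand: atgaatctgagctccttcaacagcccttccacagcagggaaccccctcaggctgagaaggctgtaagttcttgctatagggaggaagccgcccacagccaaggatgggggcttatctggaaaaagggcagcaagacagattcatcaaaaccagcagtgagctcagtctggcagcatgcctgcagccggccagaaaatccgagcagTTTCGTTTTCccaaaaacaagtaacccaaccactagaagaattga
Slfn2, chr11:83064862-83065111, plus strand: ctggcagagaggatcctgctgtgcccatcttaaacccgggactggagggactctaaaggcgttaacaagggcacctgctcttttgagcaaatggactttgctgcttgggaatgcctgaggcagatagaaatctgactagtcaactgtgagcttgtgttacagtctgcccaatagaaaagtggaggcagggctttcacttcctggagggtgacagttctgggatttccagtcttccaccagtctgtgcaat

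Windows were found for all 7 members, with 2 start sites for Slfn8. The ISRE letters were present in 3 of the 7 genes, Slfn5, Slfn8 and Slfn9, which are the 3 long ones. They were in 3.99% of the 27025 genes with a window (3.44% of 32851 windows). Slfn8 and Slfn9 carry the same 10 letters, TTTCGTTTTC, starting 48 and 45 bases before the start site of the printed windows (136 bases before the other RefSeq start of Slfn8), and their windows as printed were 83.3% identical over 245 aligned bases. In Slfn5 the match, GAAAAAGAAA, begins 155 bases before the RefSeq start site, inside a run of A. The windows of Slfn1, Slfn2, Slfn3 and Slfn4 did not hold these letters. Slfn2 and Slfn8 had log2 changes of -1.5 and -1.6, but -1.52 and -1.96 with a pseudocount of 0.1. With a pseudocount of 5 they were -1.42 and -0.9. Any part of the motif in these changes was not tested. The gamma-activated site, a motif of the response to interferon gamma, was searched as TTCNNNGAA. It was in 0 of the 7 genes and in 9.55% of the 27025 genes with a window (8.3% of windows). A match or its absence describes these letters in this window only.

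Set against each other as classes, short and long genes overlapped in their change. On the log2(FPKM + 1) scale, the level of Slfn2, the one short gene high enough to be tested, exceeded the mean level of Slfn5, Slfn8 and Slfn9 by 3.51, 3.38 and 3.51 in vehicle replicates 1, 2 and 3 and by 3.68, 3.41 and 3.08 in R replicates 1, 2 and 3. The R values lay on both sides of the vehicle values, and the difference in log2 change was -0.07. Its sign was not stable. With the same members it was 0.14 with a pseudocount of 0.1, 0.08 without R replicate 3, -0.22 without R replicate 1 and -0.51 with a pseudocount of 5. It was 0.26 without Slfn9 and 0.41 with Slfn3 counted among the shorter genes. With Slfn1 included and no filter on low values it was 0.42, where the pseudocount limits how far a gene of so low a level can change.

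The order of the levels also differed between the groups. In vehicle it was Slfn2, Slfn5, Slfn9, Slfn8, Slfn10-ps, Slfn3, Slfn1 and Slfn4 from high to low, and of these neighbours only Slfn9 and Slfn8 had overlapping library ranges. In R it was Slfn2, Slfn9, Slfn5, Slfn8, Slfn3, Slfn10-ps and Slfn4, with Slfn1 listed at 0. There Slfn9 and Slfn5 overlapped, as did Slfn3 and Slfn10-ps. As a share of the summed FPKM of the 7 genes, Slfn5 went from 9.07% to 11.2% in vehicle to 6.18% to 6.81% in R. The share of Slfn9 went the other way, from 4.81% to 5.97% in vehicle to 6.02% to 11.5% in R. The groups were only just apart. The FPKM of Slfn9 itself was lower in R, but by less than the sum of the 7 genes.

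The other Schlafen rows of the table were Slfn10-ps, Slfn14, Slfnl1 and Slfn5os, an antisense gene over Slfn5 that was listed at 0 in all 6 libraries. Slfn10-ps, a transcribed pseudogene between Slfn8 and Slfn2, had 3.40, 2.55 and 2.55 FPKM in vehicle and 1.14, 0.43 and 1.10 FPKM in R. The groups did not overlap. Its log2 change was -1.04 (SE 0.19, limma, adjusted p = 0.024). That call ended without vehicle replicate 1 (adjusted p = 0.089), without vehicle replicate 2 (adjusted p = 0.064) and when low genes were kept in (adjusted p = 0.09). Slfn14, known from platelets and red cell precursors, had an estimated 1 read in 1 vehicle library and 0 in the other 5. Slfnl1, a related gene on chromosome 4, had an estimated 2 reads in 1 R library and 0 elsewhere.

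Parts of these genes are alike enough for reads to be shared. Of the 50-base words in annotated transcripts, 19.7% of those of Slfn10-ps, 14.6% of Slfn8 and 11.2% of Slfn9 also occur in another Schlafen gene. The share was 8.15% for Slfn4, 7.39% for Slfn3, 4.27% for Slfn2, 0.606% for Slfn1 and 0% for Slfn5. The sources used here do not say how reads with several matches were treated, so the values of Slfn8, Slfn9 and Slfn10-ps are the less certain ones, and those of Slfn5 the least affected. The microRNA gene Mir7679 lies within Slfn9 on the same strand and reached at most 1.76 FPKM.

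Genes flanking the cluster did not pass the test. Of the flanking genes reported here 3 could be tested, and 0 of these passed in limma, with 0 at an unadjusted p under 0.05. Ap2b1, a subunit of the clathrin adaptor 12.3 kb beyond the cluster, averaged 28.55 ± 1.46 FPKM with vehicle and 26.1 ± 1.98 FPKM with R and had a log2 change of -0.13 (SE 0.09, adjusted p = 0.44). On the other side Nle1, a ribosome assembly factor, and Rad51d, a DNA repair gene, had log2 changes of 0.02 each (SE 0.13 and 0.10, adjusted p = 0.95 and 0.92). Fndc8, Unc45b, Rasl10b and Gas2l2 were below the filter.

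**Figure D3:**
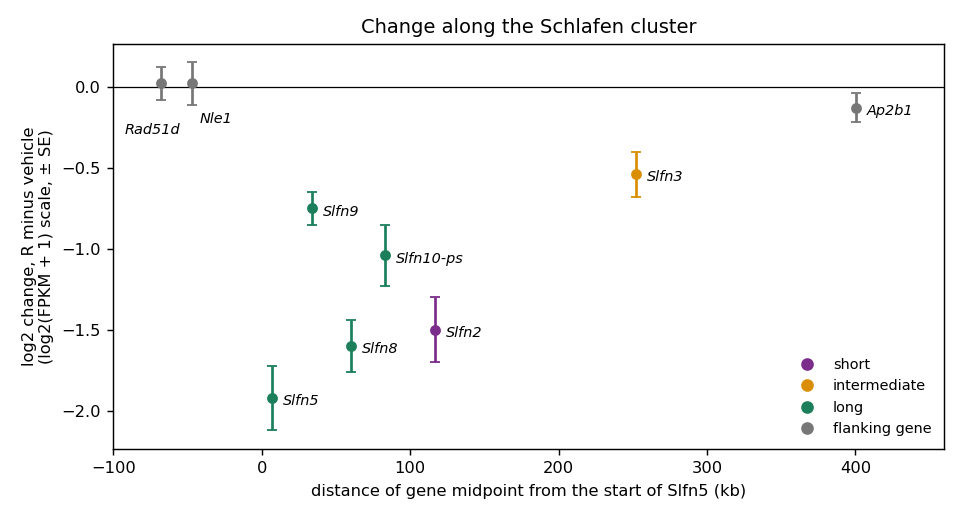
Log2 change from vehicle to R, computed on log2(FPKM + 1) values and shown ± SE, of tested genes in and beside the Schlafen cluster, by distance of the gene's midpoint from the start of Slfn5 in kb, with short, intermediate and long genes in purple, yellow and green. Schlafen genes lie between -1.92 and -0.54, and the 3 grey flanking genes lie between -0.13 and 0.02.

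Replicates within a group varied together for part of the family. In vehicle, replicate 1 was the highest and replicate 3 the lowest for Slfn1, Slfn2, Slfn5, Slfn8 and Slfn9. In R, replicate 1 was the highest for Slfn2, Slfn5 and Slfn8 but the lowest for Slfn3, Slfn4 and Slfn9. Markers of macrophages, phagocytes that often persist in marrow cultures and that express Schlafen genes, were abundant in these MSC cultures. All 10 macrophage markers on the list were tested and 1, the integrin Itgam, was called lower in R (log2 change -0.94, SE 0.12, limma, adjusted p = 0.0058). In limma 5 had an unadjusted p under 0.05, all lower in R. Of these, Itgam stood at 49.5% of vehicle, C1qa at 53.3%, Mrc1 at 55.3%, Adgre1 at 68.1% and Cd14 at 78.7%. The rest ranged from 81.1% for Csf1r to 108.5% for Cd68, and the median log2 change of the list was -0.33. Without vehicle replicate 3 the count of called markers was 3, with Adgre1 and C1qa. The summed level of the 10 markers was 17400, 14400 and 13300 FPKM in vehicle replicates 1, 2 and 3 and 14120, 11990 and 11410 FPKM in R replicates 1, 2 and 3. The order within each group was that of Slfn2, while Slfn9 had the reverse order in R.

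Expressed per 1000 FPKM of these markers, most of which is the lysozyme gene Lyz2, Slfn2 was 8.77, 8.62 and 8.47 in vehicle and 4.18, 3.60 and 3.11 in R. The groups were still apart for each of the 5 tested members. Slfn3 was only just so, with 0.1033 in R replicate 2 and 0.1036 in vehicle replicate 1. The share of all genes apart on this scale was not counted, so nothing is read from this. R stood at 42.1% of vehicle for Slfn2, 26.3% for Slfn5, 29.8% for Slfn8, 64.3% for Slfn3 and 66.6% for Slfn9. With Lyz2 left out of the sum, R stood at 45.5% of vehicle for Slfn2 and 71.7% for Slfn9. This scaling was added after the data had been seen. In bulk RNA, fewer cells of a type and less RNA per cell cannot be told apart.

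**Figure D4:**
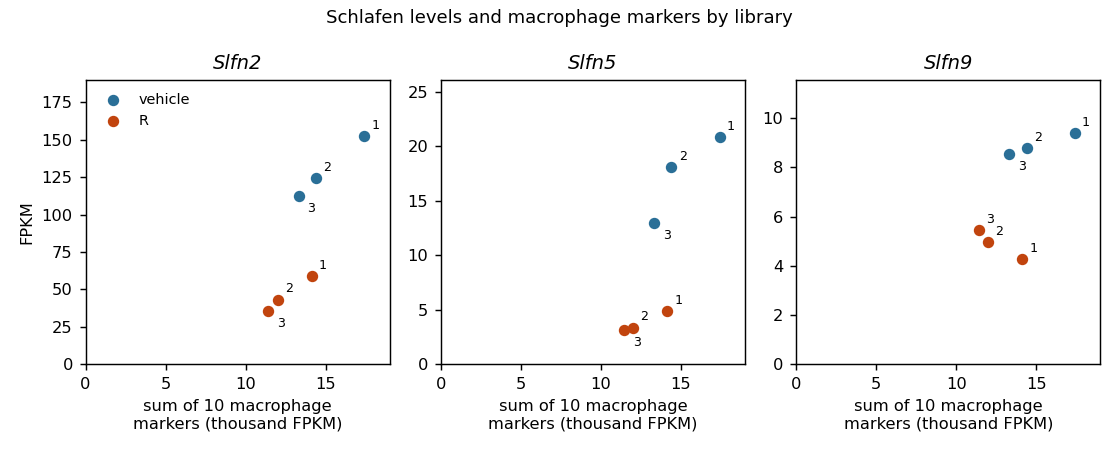
FPKM of Slfn2, Slfn5 and Slfn9 in each library against the summed FPKM of 10 macrophage markers (in 1000 FPKM), with vehicle in blue, R in orange and replicate numbers beside the points. R libraries lie below vehicle libraries for each gene. Any part of the marker sums in these levels was not tested.

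Other marker lists stood lower. The summed level of 11 T and NK cell markers was 7.53 to 13.6 FPKM in vehicle and 2.81 to 7.52 FPKM in R, of which the granule gene Nkg7 passed (log2 change -1.47, SE 0.20, limma, adjusted p = 0.0079) and Ncr1 was at 0. Nkg7 had an estimated 47, 37 and 27 reads in vehicle replicates 1, 2 and 3. In R replicates 1, 2 and 3 it had 0, 4 and 3, so it was barely detected there. It passed the filter only through the vehicle libraries, and 3 of the 11 markers were tested. Among the others tested, the T cell receptor gene Trbc2 had a log2 change of -1.02 (SE 0.30) and Cd4, also expressed by macrophages, 0.64 (SE 0.29). Neither passed, but Trbc2 was called lower without R replicate 1. The sum was lower in R, as were the Schlafen levels, and its part in them was not tested. The 5 neutrophil markers in the table summed to 7.64 to 14.3 FPKM in vehicle and 5.99 to 9.5 FPKM in R, with S100a9, Mpo and Elane at 0. The 11 stromal markers summed to 386.9 to 739 FPKM in vehicle and 665.2 to 1074 FPKM in R, and 0 of the 8 tested passed in limma, with 2 at an unadjusted p under 0.05. The collagen genes Col1a1 and Col1a2 made up most of that sum, with log2 changes of 1.19 (SE 0.33) and 0.62 (SE 0.35), and Pdgfrb had 0.65 (SE 0.19). Pdgfra, Cxcl12, Eng and Vcam1 had log2 changes of -0.60, -1.31, -0.46 and -0.34, and the median of the list was -0.14. Without R replicate 1 the count was 1, Pdgfrb, called higher in R. The 4 monocyte markers summed to 297.5 to 607.7 and 539.8 to 921.1 FPKM, most of it fibronectin, the 5 endothelial ones to 1.29 to 1.88 and 2.19 to 5.26 FPKM, and the 3 B cell ones in the table to at most 0.365 FPKM.

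Schlafen genes are induced through the interferon receptors, the kinases JAK1, JAK2 and TYK2, and the STAT and IRF factors below them. Of 15 genes of this route, all tested, 8 were called lower in R and 0 higher, where 4.43% of all genes tested were called lower. The median log2 change was -0.64 against -0.0037 over all genes. The 8 were transcription factors and feedback genes, among them Stat2, Irf1, Irf2, Irf7, Irf9, Usp18 and Socs1. In R, Irf7 reached at most 0.854 FPKM and Usp18 at most 0.198 FPKM, so both passed the filter only through the vehicle libraries. Irf9, the DNA-binding part of the complex that reads the ISRE, fell from 11.9 ± 1.53 to 2.41 ± 0.0563 FPKM (SD, n = 3). Irf7, the amplifier of type I interferon, fell from 13.2 ± 2.31 to 0.599 ± 0.232 FPKM and Irf1 from 49.4 ± 11.6 to 7.12 ± 0.771 FPKM. The call of Irf2 ended without each library other than vehicle replicate 3 and without the filter (adjusted p up to 0.14). The receptor chains and kinases did not pass, with log2 changes from -0.35 for Jak1 to 0.05 for Ifngr2, but Jak2 (log2 change -0.27, SE 0.15) was called lower without R replicate 3.

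Genes that work beside the Schlafen proteins did not pass the test. Of 10 tested genes for transfer RNA cleavage, its protection and reported partners of Schlafen proteins, 0 passed in limma and 1 had an unadjusted p under 0.05, with a median log2 change of -0.08. Ang, which encodes the ribonuclease angiogenin that cuts transfer RNA, averaged 1.5 ± 0.605 FPKM with vehicle and 1.88 ± 0.423 FPKM with R (log2 change 0.23, SE 0.21). Dhx9, an RNA helicase reported to bind a human long Schlafen, had a log2 change of -0.23 (SE 0.09, adjusted p = 0.18). The single-strand DNA-binding subunit Rpa2 had -0.26 (SE 0.14) and the transfer RNA end-processing enzyme Elac2 had 0.14 (SE 0.09).

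The family is best known for restraining proliferation, so 8 proliferation genes were also read. In limma 4 of the 8 were called lower in R and 0 higher, where 4.43% of all genes tested were called lower, and the median log2 change was -0.47. Of those not called, Mki67, Mcm2 and Cdk1 had log2 changes of -0.51, -0.44 and -0.33, and the cyclin gene Ccnd1 had 0.42 (SE 0.19). Top2a, the mitotic topoisomerase, fell from 26.2 ± 1.43 to 16.1 ± 1.42 FPKM (log2 change -0.67, SE 0.09, limma, adjusted p = 0.0088) and kept its call under each alternative. The calls of Ccna2, Ccnb1 and Pcna (log2 changes -0.59, -0.60 and -0.41) did not: without R replicate 1, vehicle replicate 1, 2 or 3, or the filter, Top2a was the 1 gene of the list left.

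The profile of the 5 tested members over the 6 libraries was closest to those of Tapbp, Phf11d, Nmi, Samd9l, Parp12 and Gm4070. Likeness was the Euclidean distance between centred log2(FPKM + 1) profiles, which reads size and direction together, and it was 0.0897 to 0.175 for these 6. The members' own distances to their mean profile were larger, from 0.464 for Slfn8 and 0.505 for Slfn2 to 0.887 for Slfn5 and 1.03 for Slfn3. Tapbp, the tapasin chaperone of peptide loading, averaged 177 ± 17 FPKM with vehicle and 72.7 ± 4.57 FPKM with R, with a log2 change of -1.27 (SE 0.10). Nmi, a partner of STAT proteins, had -1.25 (SE 0.10), and Samd9l, an antiviral factor that like some Schlafens cuts transfer RNA, had -1.23 (SE 0.12). The 6 were picked for this likeness, so their values are a description.

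Depth, estimated from the smallest FPKM steps, ran from 17060000 to 21760000 reads. Libraries correlated at r = 0.977 to 0.986 within a group and 0.936 to 0.963 between groups across genes, which are not independent replicates. None of the 10 housekeeping genes looked at was listed at 0 in any library, but their levels were not all steady. Gapdh was at 22.4, 2.62 and 13.4 FPKM in vehicle replicates 1, 2 and 3. In R replicates 1, 2 and 3 Gapdh was at 2.77, 2.81 and 3.2 FPKM. B2m was at 3188, 2932 and 2446 FPKM in vehicle and 1483, 1450 and 1097 FPKM in R. The cause was not tested.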

How the data were processed

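The authors deposited one table of FPKM (fragments scaled to gene length and library size), with a column for each library, and the unit is named per the file headers. GRCm38 (mm10) and edgeR 3.18.1 are the build and tool named in the submitters' processing notes. The sources used here do not give the aligner, counter or annotation. Groups came from the sample titles. Symbols, positions and exon lengths came from GENCODE M21; 49281 of 49328 identifiers matched.

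Values were analysed as log2(FPKM + 1) in limma 3.58.1 (R 4.3.3) with 2 groups, a trend in the prior variance and Benjamini-Hochberg adjustment over 11862 genes with at least 1 FPKM in at least 3 of 6 libraries, and the test was checked on simulated data. Reads were estimated from FPKM and exon length: 98.3% to 98.4% of values under 20.5 reads were whole within 0.02. Coding identity came from global alignment in Biopython 1.88. The text names all members, other Schlafen genes, 4 flanking genes on either side, up to 4 genes per list by p, and the 6 most alike profiles; other list genes were named after their values were seen. Some genes that this rule names are not reported here. The last line of the table, broken off, was left out. Members, lists and tests were chosen with earlier results of these data known. Alternatives were other pseudocounts, filters, scalings and priors, a replicate block and leaving out each library.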

Additional observations from a re-analysis of the deposited data

How the results depend on the processing

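The log2 changes of the 5 tested members were negative under each alternative that gave a value, and Slfn2, Slfn5, Slfn8 and Slfn9 were called lower in each, while Slfn3 was called in none (adjusted p from 0.056 to 0.2). Without a filter Slfn1 was also called (log2 change -0.5, limma, adjusted p = 0.018), where 344 of 25575 genes were called. Slfn1 was listed at 0 in all 3 R libraries and entered that fit only through the vehicle libraries, so nothing is read from this call. Over these alternatives the log2 change ran from -1.69 to -1.33 for Slfn2, -2.16 to -1.33 for Slfn5, -1.96 to -0.9 for Slfn8 and -0.86 to -0.49 for Slfn9, with the smallest changes at a pseudocount of 5 for all but Slfn2. The number of genes called fell from 809 to 344 without a filter, and that of genes called lower from 525 to 279; leaving out 1 library gave 337 (without vehicle replicate 1) to 879 (without vehicle replicate 3) and 272 to 527, with at most 506 genes called without any library other than vehicle replicate 3. The difference in change between short and long genes was -0.07. It was 0.14 with a pseudocount of 0.1, -0.51 with a pseudocount of 5, -0.22 (without R replicate 1) to 0.08 (without R replicate 3) when 1 library was left out, 0.26 without Slfn9, 0.41 with Slfn3 and, without a filter, 0.42 with Slfn1 and 0.76 with all 4 shorter genes (the last 2 chosen after seeing the data); the cause was not tested. The labels do not say whether same-numbered libraries of the groups were paired. Their deviations from the group means correlated at 0.142, -0.0117 and -0.0309, which cannot decide this with 3 libraries per group. Under a replicate block the SE went from 0.2 to 0.1 for Slfn2, 0.2 to 0.11 for Slfn5 and 0.16 to 0.13 for Slfn8. It went from 0.1 to 0.12 for Slfn9 and from 0.14 to 0.15 for Slfn3. With a replicate block 756 genes were called, 457 of them lower, and the same 4 members. On a TPM scale no member's level in R relative to vehicle moved beyond its SD. The letters GAAANNGAA were in the same 3 members' windows as the longer motif.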
